A study of Mus musculus with 27 samples.

Results

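The genes described here are Nanog, Dppa3, Gdf3, Slc2a3 and Apobec1, which lie side by side on mouse chromosome 6. They were chosen by gene symbol and position, and are 5 of the 20156 genes in the deposited expression tables. Around them, the stretch chr6:122500001-122800000 (mm9) was read as 300 windows of 1 kb. From left to right on the chromosome the RefSeq gene bodies are Apobec1 (122527810 to 122552462, minus strand), Gdf3 (122555421 to 122560089, minus strand), Dppa3 (122576442 to 122580289, plus strand), Nanog (122657586 to 122663796, plus strand) and Slc2a3 (122677827 to 122692763, minus strand). Their transcription start sites (TSSs) lie from -105.12 kb to 35.2 kb of that of Nanog.

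The study followed 3 cell types through the reprogramming of somatic cells. Mouse embryonic fibroblasts (MEFs) came from day 13.5 embryos of CBA/CaJ x C57BL/6J males crossed with 129Sv/Jae females, and carried a transgenic Oct4-GFP allele and a Rosa26 allele. Partially reprogrammed cells (pre-iPSCs) and induced pluripotent stem cells (iPSCs) were made from such MEFs with the Yamanaka factors carried by retroviruses, and were grown on inactivated MEF feeder cells with leukaemia inhibitory factor (LIF). RNA-seq, and ChIP-seq of mononucleosomes released by micrococcal nuclease (MNase) with antibodies to H3, H3K4me3 and H3K27me3, have 2 libraries per cell type, and H3K9me3 has 1. A library whose title marks a repeat is replicate 2 below. Neither the clone behind a library nor separate cultures can be read from the labels, so p-values measure only the spread between these libraries, and an RNA library cannot be matched to a chromatin library. MEFs were digested with another amount of MNase and for another time than the other cells, so digestion and cell type cannot be told apart in a comparison with MEFs.

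Nanog is a homeodomain factor of the pluripotency network, in which it works with Oct4 (Pou5f1) and Sox2. Dppa3, also called Stella, is expressed in early embryos, germ cells and naive pluripotent cells and protects DNA from loss and gain of methylation. Gdf3 is a ligand of the TGF-beta family that signals through the Nodal co-receptor Cripto (Tdgf1), Slc2a3 is a high-affinity glucose transporter, and Apobec1 is a cytidine deaminase that edits RNA. H3K4me3 marks active and poised promoters, H3K27me3 is laid down by the Polycomb repressive complex, and H3K9me3 is a mark of heterochromatin.

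The 250 bases before the TSS are printed here for the 4 genes whose RNA differed between iPSCs and MEFs by the test on FPKM, written 5′ to 3′ in the direction of the gene, from the mm9 sequence. They lie at chr6:122657336-122657585 (plus strand) for Nanog, chr6:122576192-122576441 (plus strand) for Dppa3, chr6:122560090-122560339 (minus strand) for Gdf3 and chr6:122692764-122693013 (minus strand) for Slc2a3. Capitals mark the motifs found among an octamer core (TTTGCAT), a Sox motif (CATTGT), a GC box (GGGCGG) and a TATA box (TATAAA), each sought on both strands.
Nanog: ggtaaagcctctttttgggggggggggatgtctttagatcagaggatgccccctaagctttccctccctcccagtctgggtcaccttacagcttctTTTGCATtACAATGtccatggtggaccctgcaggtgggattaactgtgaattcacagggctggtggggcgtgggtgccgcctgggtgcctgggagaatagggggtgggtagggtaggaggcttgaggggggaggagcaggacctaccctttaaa
Dppa3: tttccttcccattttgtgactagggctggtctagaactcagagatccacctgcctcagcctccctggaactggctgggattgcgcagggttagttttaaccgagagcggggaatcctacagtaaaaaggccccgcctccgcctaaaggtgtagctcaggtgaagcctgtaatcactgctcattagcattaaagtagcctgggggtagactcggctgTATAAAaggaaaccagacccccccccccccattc
Gdf3: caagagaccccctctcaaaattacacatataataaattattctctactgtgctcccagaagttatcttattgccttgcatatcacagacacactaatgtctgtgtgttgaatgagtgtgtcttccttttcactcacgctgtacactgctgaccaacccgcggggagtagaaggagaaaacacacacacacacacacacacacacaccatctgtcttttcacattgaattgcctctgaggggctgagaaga
Slc2a3: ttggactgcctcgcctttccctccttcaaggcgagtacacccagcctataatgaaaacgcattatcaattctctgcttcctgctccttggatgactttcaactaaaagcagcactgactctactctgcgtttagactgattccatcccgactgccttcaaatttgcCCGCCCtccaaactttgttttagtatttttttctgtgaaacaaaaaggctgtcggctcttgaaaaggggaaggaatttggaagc

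In the Nanog promoter the octamer core stands at -154 to -148 from the TSS. The Sox motif, on the opposite strand, stands at -146 to -141, with 1 base between the 2 motifs and no overlap. Of 20153 promoters of this length, 3.67% hold the octamer core, 8.54% the Sox motif and 0.526% both. The Dppa3 promoter holds a TATA box at -34 to -29, as 11.7% of promoters do anywhere in the window. The Slc2a3 promoter holds a GC box on the opposite strand at -84 to -79, a motif present in 45.8% of promoters, and the Gdf3 promoter holds none of the 4. All 5 genes are poor in CpG. Within 500 bp of the TSS there were 18 CpG for Nanog, 23 for Gdf3, 24 for Apobec1, 27 for Dppa3 and 28 for Slc2a3, against a median of 47 over all promoters.

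The RNA levels were read first, to ask when in reprogramming each gene of the cluster is switched on. Nanog and Dppa3 were high in iPSCs alone, Slc2a3 was already high in pre-iPSCs, Gdf3 was high in 1 of the 2 pre-iPSC libraries, and Apobec1 stayed below 10 FPKM in all libraries. Levels are given as FPKM (fragments scaled to transcript length and library size), replicate 1 before replicate 2. As these are bulk samples, fewer expressing cells and less RNA per cell cannot be told apart. A 0 below means that the gene is listed at 0. Each library lists between 4596 and 6150 genes at 0, but none of 15 housekeeping genes.

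Nanog was listed at 0 in both MEF libraries, at 0.519 and 0 FPKM in pre-iPSCs and at 49.5 and 73.6 FPKM in iPSCs. Thus both iPSC libraries stood far above the other 4, which overlapped. Tested with limma on log2(FPKM + 1), with p adjusted over 12401 genes, Nanog was higher in iPSCs than in pre-iPSCs by 5.64 ± 0.41 (SE; adjusted p = 0.00101) and than in MEFs by 5.94 ± 0.41 (adjusted p = 0.000675). Between pre-iPSCs and MEFs the difference was 0.30 ± 0.41 (adjusted p = 0.684).

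Dppa3 was listed at 0 in all MEF and pre-iPSC libraries and at 11.3 and 41.2 FPKM in iPSCs. The groups did not overlap, but the iPSC libraries differed more between themselves than for Nanog. On the log2(FPKM + 1) scale Dppa3 was higher in iPSCs by 4.51 ± 0.50 than in pre-iPSCs (limma, adjusted p = 0.00313) and than in MEFs (adjusted p = 0.00157). This SE pools the spread of all cell types, with MEFs and pre-iPSCs at 0 throughout, and is moderated by other genes. It does not measure the spread of the iPSC libraries alone. No fold change is given against a group listed at 0. Sequences of at least 90% identity and 500 bp exist elsewhere in mm9 for both genes, and as reads that map to more than 1 place were dropped in the study, their FPKM are uncertain where gene and copy are alike. For Dppa3 these are on chromosome X (97.7% over 820 bp of the 833-base transcript) and on chromosome 14 (90.8% over 682 bp), and for Nanog on chromosome X (97.4% over 1325 of 2211 bases). No such copy was found for the other 3 genes.

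Gdf3 was listed at 0 in both MEF libraries, at 0.788 and 40.5 FPKM in pre-iPSCs and at 73.5 and 58.6 FPKM in iPSCs. The 2 pre-iPSC libraries fell on different sides: replicate 1 was near the MEFs and replicate 2 near the iPSCs. With this spread neither step alone passed the test (3.11 ± 1.07, adjusted p = 0.0929 from MEFs to pre-iPSCs; 2.95 ± 1.07, adjusted p = 0.158 from pre-iPSCs to iPSCs, limma). iPSCs were above MEFs by 6.06 ± 1.07 (adjusted p = 0.00738), a call that was lost without iPSC replicate 1 (4.76, adjusted p = 0.0932).

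Slc2a3 stood at 0.894 and 0.999 FPKM in MEFs, 67.8 and 24.4 FPKM in pre-iPSCs and 119 and 342 FPKM in iPSCs. The 3 cell types did not overlap, with means of 0.946 ± 0.075, 46.1 ± 30.7 and 231 ± 158 FPKM (SD, n = 2). The mean was 48.7 times that of MEFs in pre-iPSCs and 244 times in iPSCs. On the log2(FPKM + 1) scale Slc2a3 rose by 4.43 ± 0.64 from MEFs to pre-iPSCs (limma, adjusted p = 0.00504) and was higher by 6.70 ± 0.64 in iPSCs than in MEFs (adjusted p = 0.0011). The difference of 2.28 ± 0.64 between iPSCs and pre-iPSCs missed the threshold (adjusted p = 0.0746).

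Apobec1 stood at 1.16 and 2.22 FPKM in MEFs, 3.26 and 9.85 FPKM in pre-iPSCs and 5.19 and 4.72 FPKM in iPSCs. Both groups of reprogrammed cells lay above the MEFs without overlap, and the iPSC values fell within the range of the pre-iPSCs. No comparison passed the test. The differences were 1.37 ± 0.45 from MEFs to pre-iPSCs (limma, adjusted p = 0.0815), 1.17 ± 0.45 from MEFs to iPSCs (adjusted p = 0.0948) and -0.19 ± 0.45 from pre-iPSCs to iPSCs (adjusted p = 0.870).

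In iPSCs the order of the mean levels was Slc2a3, Gdf3, Nanog, Dppa3 and Apobec1. The ranges of Gdf3 and Nanog overlapped, so their order was not set beyond the spread, while Slc2a3 lay above both and Dppa3 below both in each library. In pre-iPSCs the order was Slc2a3, Gdf3, Apobec1, Nanog and Dppa3, and the range of Gdf3 covered those of Slc2a3 and Apobec1 in part or whole.

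**Figure D1:**
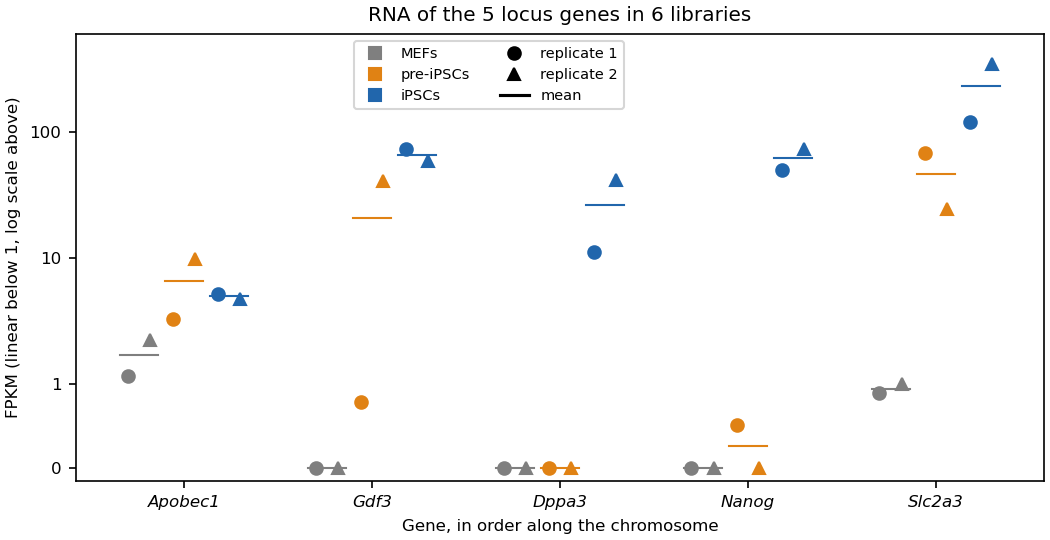
FPKM of the 5 genes in each of the 6 RNA-seq libraries, on an axis that is linear below 1 and logarithmic above. Points are libraries and short lines are means of 2. Nanog and Dppa3 are off the floor in iPSCs only (11.3 to 73.6 FPKM, apart from 0.519 for Nanog in 1 pre-iPSC library), Gdf3 splits the pre-iPSC libraries (0.788 and 40.5 FPKM), and Slc2a3 is at 24.4 FPKM or more in all pre-iPSC and iPSC libraries.

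Calls needed a log2 difference of 1 or more and an adjusted p under 0.05. By this rule 1 of the 5 genes was called higher in pre-iPSCs than in MEFs, where 16.4% of all genes tested were called (7.39% higher). In iPSCs against pre-iPSCs 2 were called higher, against 8.62% of all genes (3.91% higher). In iPSCs against MEFs 4 were called higher, against 25.9% of all genes (10.3% higher). Nanog and Dppa3 passed the filter on low values through the iPSC libraries alone, and the 3 counts were the same with no filter. The median difference of the 5 genes was 1.37, 2.95 and 5.94 in the 3 comparisons, beside -0.04, -0.09 and -0.14 over all genes.

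Markers of the cells that the libraries could hold were read beside these levels. The 9 fibroblast markers summed to 4310 and 4197 FPKM in MEFs, to 314 and 96.7 FPKM in pre-iPSCs and to 239 and 283 FPKM in iPSCs, and none of the 9 was at 0 in any library. Feeder cells are MEFs too, and their part in the RNA of the reprogrammed cells was not tested. In MEF libraries, where Nanog, Dppa3 and Gdf3 were listed at 0, 7 pluripotency markers summed to 0.147 and 1.03 FPKM, so they were near 0 as well. For pre-iPSCs these markers summed to 904 and 3695 FPKM and for iPSCs to 2287 and 2180 FPKM, where all 7 were above 1 FPKM, and only 5 of 7 were in pre-iPSCs. Pou5f1 alone made up 3184 of the 3695 FPKM in pre-iPSC replicate 2, and with Sox2 (378 and 272 FPKM) most of the 904 FPKM in replicate 1, genes that the retroviruses also carry. The 4 epithelial markers summed to 0.161 and 0.0387 FPKM in MEFs, to 76.9 and 16.6 FPKM in pre-iPSCs and to 132 and 153 FPKM in iPSCs. The lower of the pre-iPSC sums, like the lower fibroblast sum, was that of replicate 2, the library in which Gdf3 was high. The part of these differences in the levels of Gdf3 was not tested. Markers of macrophages (4 genes, 6.22 to 51.5 FPKM in sum) and endothelium (3 genes, 0.152 to 15.9 FPKM) were present too. Most of the sum was Lyz2 in iPSC replicate 2, at 45.5 FPKM, and Pecam1 in iPSCs, at 15.9 and 12.7 FPKM, which pluripotent cells also express. Of the other macrophage genes Cd68 stood at 2.12 to 10.1 FPKM, Csf1r at 0.102 to 3.33 FPKM and Ptprc at 0 to 0.240 FPKM, and of the endothelial genes Kdr stood at 0.0138 to 1.92 FPKM and Cdh5 at 0 to 0.106 FPKM. Their part in the levels of the 5 genes was not tested.

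Among 20 partners of Nanog and regulators of pluripotency, 9 were called higher and 0 lower in pre-iPSCs than in MEFs by limma, 14 were higher and 1 (Klf4) was lower in iPSCs than in pre-iPSCs, and 19 were higher and 0 lower in iPSCs than in MEFs. Their median differences were 0.82, 2.83 and 5.58. For this list and those below, the shares called over all genes tested were 16.4%, 8.62% and 25.9% (7.39%, 3.91% and 10.3% higher). The medians over all genes were -0.04, -0.09 and -0.14. One set of these genes was like Nanog in the pre-iPSC libraries. Esrrb stood at 0.0188 and 0.0335 FPKM in pre-iPSCs and 52.5 and 52.5 FPKM in iPSCs, Zfp42 (Rex1) at 0 and 0.0837 against 56.0 and 63.9 FPKM, and Dppa4 at 0 and 0.0568 against 71.3 and 59.1 FPKM. Another was called higher in pre-iPSCs than in MEFs: Sall4 stood at 8.08 and 4.12 FPKM, Fgf4 at 23.1 and 13.9 FPKM and Nr0b1 at 15.9 and 10.1 FPKM, each listed at 0 in MEFs. Klf4 was the 1 gene called lower in iPSCs than in pre-iPSCs, from 674 and 782 FPKM to 99.6 and 105 FPKM. For Klf4, Sox2 and Pou5f1 transcripts of the retroviruses cannot be told apart from those of the cell's own gene.

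In the Nodal and Gdf3 pathway, 14 of 17 listed genes were tested. There, 1 was called higher in pre-iPSCs than in MEFs, 5 were higher in iPSCs than in pre-iPSCs with none lower, and in iPSCs against MEFs 7 were higher and 2 lower, with medians of 0.08, 1.14 and 1.77. The co-receptor Tdgf1 was the gene that rose in pre-iPSCs, from 0 and 0.0833 FPKM to 228 and 333 FPKM (log2 difference 8.05, limma adjusted p = 0.000275). The ligand Nodal split the pre-iPSC libraries in the other direction from Gdf3, at 10.2 FPKM in replicate 1 and 0.354 FPKM in replicate 2, before 39.1 and 34.4 FPKM in iPSCs. The Nodal inhibitors Lefty1 (114 and 187 FPKM) and Lefty2 (26.3 and 43.7 FPKM) were high in iPSCs and at most 0.428 FPKM in the other libraries. Of the intracellular members, the Smad partner Foxh1 was called higher in iPSCs than in both other cell types, and Smad3 (17.1 and 11.0 FPKM in MEFs, 4.83 and 4.18 FPKM in iPSCs) was called lower than in MEFs. The 2 called lower were Smad3 and Furin, a protease that processes TGF-beta ligands.

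Of 9 tested regulators of DNA methylation listed beside Dppa3, 3 were called higher in pre-iPSCs than in MEFs, 3 higher in iPSCs than in pre-iPSCs and 8 higher in iPSCs than in MEFs, with none lower. The medians were 1.37, 0.53 and 1.89. Dnmt3l, the cofactor of the de novo methyltransferases, followed the steps of Dppa3, at 0.0511 and 0 FPKM in pre-iPSCs and 83.7 and 67.8 FPKM in iPSCs. Uhrf1, the partner of Dnmt1, was higher in pre-iPSCs than in MEFs already (32.5 and 22.4 FPKM in MEFs, 95.9 and 52.6 FPKM in pre-iPSCs, log2 difference 1.37, limma adjusted p = 0.0377). Of 5 tested genes of glucose uptake other than Slc2a3, Slc2a1 was called higher in pre-iPSCs than in MEFs (57.3 and 61.7 FPKM against 230 and 303 FPKM), and Slc2a10 was lower (3.50 and 5.46 FPKM against 0.263 and 0.149 FPKM). Of 5 tested deaminases and cofactors of Apobec1, Apobec2, Apobec3 and the cofactor Rbm47 were called higher in iPSCs than in MEFs, and Celf2 was lower. A1cf, the partner of Apobec1 in editing, was listed at 0 in 5 libraries and at 0.0185 FPKM in pre-iPSC replicate 2.

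Likeness to Nanog, Dppa3 and Gdf3 was measured over the 6 libraries as the root mean square difference of centred log2(FPKM + 1), among 12400 other genes. For Nanog the nearest genes were Zfp42 (0.26), Esrrb (0.27) and Stra8 (0.31), and Dppa3 ranked 20 (0.73). For Dppa3 they were Gm13242 (0.27), Gm13051 (0.28) and Cldn6 (0.34), and Nanog ranked 28. For Gdf3 the nearest genes were farther off. These were Upp1 (0.90), Ndufa4l2 (1.11) and Morc1 (1.12), each higher in pre-iPSC replicate 2 than in replicate 1, and Slc2a3 ranked 129. The points share 6 libraries of 3 cell types, so these values only describe the pattern.

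Of 19 neighbouring genes of chromosome 6, taken by the position of the TSS, 7 were tested by limma. Pre-iPSCs had 1 called higher and 1 lower than MEFs, iPSCs had 1 called higher than pre-iPSCs, and in iPSCs against MEFs 2 were higher and 1 lower. Over all genes tested 16.4%, 8.62% and 25.9% were called. With 7 genes, counts this small do not set the neighbours apart from all genes. Phc1, a Polycomb group gene, stood at 10.9 and 4.46 FPKM in MEFs, 88.9 and 88.0 FPKM in pre-iPSCs and 78.3 and 91.3 FPKM in iPSCs. Rimklb followed the steps of Nanog, at most at 0.0527 FPKM in MEFs and pre-iPSCs and at 6.31 and 8.32 FPKM in iPSCs. Mfap5, a microfibril gene, went the other way, from 19.2 and 82.3 FPKM in MEFs to 2.67 and 2.43 FPKM in pre-iPSCs. Foxj2, at the right end, stood at 6.54 and 3.24 FPKM in MEFs and 1.07 and 1.94 FPKM in iPSCs (-1.20 ± 0.44, adjusted p = 0.0843, not called).

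The chromatin of the promoters was read as the sum of the reads of called nucleosomes with dyads within 500 bp of the TSS. The calls of a library hold 12007350 to 13146349 reads for H3K4me3, 13224775 to 15222040 for H3K27me3, 12222861 to 12942154 for H3K9me3 and 67362868 to 108211816 for H3. Depth per promoter was therefore low. The median promoter held 11 to 18 reads of H3K4me3 and 3 or 4 of H3K27me3 and H3K9me3, where the mean over the genome is 4.97 to 5.45 reads per kb for H3K4me3. Counts were tested with edgeR's quasi-likelihood test, adjusted over all promoters that passed its filter. In the values below the 6 numbers are MEF, pre-iPSC and iPSC libraries, replicate 1 before replicate 2 in each.

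H3K4me3 within 500 bp of the TSS was not called different for Slc2a3, Nanog, Apobec1 and Gdf3 in any comparison. Apobec1 held 36, 35, 16, 22, 17 and 24 reads, the most of the 5 genes in MEFs. Its mean RNA level was the highest of the 5 in MEFs, at 1.69 FPKM, and the lowest in iPSCs, at 4.96 FPKM. Slc2a3 held 22, 32, 22, 14, 25 and 17 reads, and Nanog 13, 10, 15, 7, 16 and 10 reads. For Slc2a3 and Nanog the 3 cell types overlapped, although their RNA differed 244 times in the mean between iPSCs and MEFs for the first and was listed at 0 in MEFs for the second. Gdf3 held 5, 9, 10, 14, 14 and 18 reads and Dppa3 held 2, 3, 9, 3, 11 and 10 reads, fewest in MEFs. The rise of Dppa3 from MEFs to iPSCs was the only call, by 2.33 ± 0.71 on the log2 scale (adjusted p = 0.0275). It reached 10 reads in the iPSC libraries alone, so the filter on low counts kept it through the cells where it was high, and with no filter the difference was 2.29 (edgeR adjusted p = 0.0219). Thus 0, 0 and 1 of the 5 genes were called in the 3 comparisons, against 1.86%, 0% and 6.04% of all promoters (4.85% higher in the last). At an unadjusted p below 0.05 there were 2, 0 and 2, beside 14.7%, 7.26% and 21.5% of all promoters. The share of higher calls over all promoters rested on the scaling. In iPSCs against MEFs 722 promoters were higher and 176 lower, but 141 higher and 249 lower when scaled to uniquely mapped reads, which moved the median promoter from -0.04 to -0.42. In pre-iPSCs against MEFs 228 and 48 became 27 and 169, and the median went from -0.02 to -0.50. With that scaling Dppa3 was at 1.98 in iPSCs against MEFs (edgeR adjusted p = 0.0784), and Nanog in pre-iPSCs against MEFs turned from 0.33 to -0.13, neither called. DESeq2 called 0 of the 5 in each comparison and 3, 0 and 2 of all 14874 promoters, and the call of Dppa3 was also lost when any 1 of the 6 libraries was left out (adjusted p from 0.0581 to 0.318).

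With reads within 1000 bp of the TSS, H3K4me3 at Gdf3 rose from 10 and 14 reads in MEFs to 25 and 28 in pre-iPSCs (1.45 ± 0.38, edgeR adjusted p = 0.0189) and 28 and 31 in iPSCs (1.59 ± 0.37, adjusted p = 0.00341). In this window 1, 0 and 2 of the 5 genes were called, against 3.85%, 0% and 13.7% of all promoters (3.05% and 9.74% higher in the first and the last). Reads of the mark at Gdf3 were close in the 2 pre-iPSC chromatin libraries, while its RNA differed between the 2 pre-iPSC RNA libraries. RNA and chromatin libraries cannot be matched, and this contrast was not tested. Dppa3 was called here too, with 7, 16, 23, 11, 26 and 20 reads (1.28 ± 0.42 from MEFs to iPSCs, adjusted p = 0.0333).

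H3K27me3 was highest in MEFs at 3 of the 5 promoters without overlap, and the share of all promoters with this pattern was not counted. In 1-kb windows genome-wide, per uniquely mapped read, both libraries lay below both MEF libraries in 19.0% for pre-iPSCs and 20.8% for iPSCs. These windows are not promoters and set 1 cell type at a time against MEFs, so the shares are no baseline for the 3 of 5. Nanog held 15, 16, 8, 3, 4 and 6 reads, Slc2a3 held 13, 15, 3, 4, 2 and 0 reads, and Gdf3 held 10, 9, 4, 4, 6 and 1 reads. Dppa3 held 5, 10, 4, 4, 4 and 5 reads and Apobec1 held 5, 2, 1, 5, 6 and 2 reads, with cell types that met or overlapped. Slc2a3 and Nanog passed the filter on low counts, and did so through the MEF libraries, in which they were high, so the filter favoured a lower value elsewhere. With no filter 0, 0 and 1 genes were called, and Slc2a3 was at -3.73 in iPSCs against MEFs (edgeR adjusted p = 0.00135). Slc2a3 was lower in iPSCs than in MEFs by -3.53 ± 0.90 (edgeR adjusted p = 0.0126). As the iPSC reads of Slc2a3 sum to 2, the ratio of MEFs to iPSCs is 13.5 with a 95% exact interval of 3.40 to 117 for counting error alone. For Nanog the differences from MEFs were -1.39 ± 0.54 in pre-iPSCs (adjusted p = 0.143) and -1.48 ± 0.55 in iPSCs (adjusted p = 0.117). In all, 0, 0 and 1 of the 2 tested genes were called, against 2.32%, 0.0902% and 3.94% of all promoters (1.22% lower in the last), and 2, 0 and 2 had an unadjusted p below 0.05, beside 16.4%, 8.45% and 16.9% of all promoters. DESeq2 called 0 of all 4436 promoters tested, and the call of Slc2a3 was lost without MEF replicate 1 (adjusted p = 0.204), MEF replicate 2 (adjusted p = 0.211) or iPSC replicate 2 (adjusted p = 0.138).

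Within 1000 bp of the TSS, where 4 of the 5 genes passed the filter, the same 3 promoters were called lower than MEFs in both pre-iPSCs and iPSCs by edgeR. Gdf3 held 24, 26, 11, 6, 8 and 3 reads (-1.50 ± 0.40, adjusted p = 0.0101 in pre-iPSCs; -2.16 ± 0.44, adjusted p = 0.000391 in iPSCs). Slc2a3 held 24, 31, 8, 10, 10 and 3 reads (-1.55 ± 0.39, adjusted p = 0.00641; -2.06 ± 0.42, adjusted p = 0.000413). Nanog held 24, 35, 15, 12, 10 and 8 reads (-1.07 ± 0.35, adjusted p = 0.0416; -1.70 ± 0.38, adjusted p = 0.00123). Dppa3 held 15, 18, 14, 11, 11 and 11 reads and was not called (-0.35 ± 0.39 and -0.58 ± 0.40). Gdf3 and Slc2a3 reached 10 reads in both libraries of MEFs and of no other cell type, so the filter on low counts favoured a lower call for them. With no filter, a fit added after seeing the data, edgeR called the same 3 genes lower in both comparisons, Gdf3 by -1.61 ± 0.41 (adjusted p = 0.00867) and -2.32 ± 0.45 (adjusted p = 0.000168). Calls made up 8.10% and 11.2% of all promoters in these comparisons, and lower calls 3.09% and 3.88%. Between iPSCs and pre-iPSCs 0 of the 4 were called by edgeR and 0 had an unadjusted p below 0.05, with adjusted p from 0.652 to 0.905. Hence H3K27me3 at Nanog was called lower in pre-iPSCs within 1000 bp of the TSS, but not within 500 bp. In pre-iPSCs its RNA was at 0.519 FPKM or listed at 0. DESeq2 and fits with a library left out were not run on the sums within 1000 bp.

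H3K9me3 has 1 library per cell type, so its values were not tested and carry 95% Poisson intervals that cover counting error only. The Gdf3 promoter held 7 reads (2.81 to 14.4) in MEFs, 18 (10.7 to 28.4) in pre-iPSCs and 4 (1.09 to 10.2) in iPSCs. In pre-iPSCs it stood above 99.8% of all promoters, whose median was 3 reads. The interval of pre-iPSCs overlapped that of MEFs and not that of iPSCs. The same order held over the Gdf3 body, with 23, 54 and 16 reads, or 0.95, 2.14 and 0.67 times the genome mean. H3 over this body stood at 3.65 times its genome mean in pre-iPSC replicate 1 and at 0.798 to 1.51 times in the other 5 libraries, and its part in the H3K9me3 reads was not tested. Nanog held 13, 11 and 7 reads, above 98.5% of promoters in MEFs and 80.0% in iPSCs, with overlapping intervals. Dppa3 held 4, 9 and 5 reads, above 91.7% of promoters in pre-iPSCs, with overlapping intervals. Slc2a3 and Apobec1 held 1 to 5 reads. Within 1000 bp of the TSS pre-iPSCs held the most reads at Gdf3 (13, 24 and 5), Nanog (18, 28 and 14) and Dppa3 (12, 19 and 11). There MEFs held the most at Apobec1 (9, 4 and 5) and Slc2a3 (12, 7 and 7). The order at Nanog thus changed with the window.

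H3 itself marks nucleosome occupancy. A pair of libraries stands apart: pre-iPSC replicate 1 held a median of 83 reads per promoter and iPSC replicate 1 held 54, against 15 to 20 in the other 4 libraries. Nanog held 55, 49, 176, 56, 54 and 38 reads, Gdf3 34, 49, 237, 37, 56 and 27, and Dppa3 25, 34, 142, 39, 28 and 18. Slc2a3 held 19, 24, 92, 41, 36 and 22 reads and Apobec1 30, 22, 108, 22, 35 and 21. In 5 of 6 libraries all of these stood at or above the median promoter. In iPSC replicate 1 Gdf3 was above it, Nanog was at it and the other 3 were below. With all 6 libraries no promoter was called in any comparison by edgeR or DESeq2 (0% of 18900), and 0, 2 and 0 of the 5 genes had an unadjusted p below 0.05, beside 1.69%, 0.651% and 2.09% of all promoters. The 2 were Dppa3 (-1.48 ± 0.56) and Gdf3 (-1.03 ± 0.37), lower in iPSCs than in pre-iPSCs (edgeR adjusted p = 1.00 for both). Without pre-iPSC replicate 1 the values were -1.84 ± 0.62 (adjusted p = 0.656) and -0.99 ± 0.58 (adjusted p = 0.673), and without iPSC replicate 1 they were -1.11 and -0.83 (adjusted p = 1.00 for both). The count over all promoters rested on 1 library. Without pre-iPSC replicate 2, which leaves pre-iPSC replicate 1 alone and takes its spread from the other cells, edgeR called 228 promoters higher and 2903 lower in pre-iPSCs than in MEFs and 1811 higher and 12 lower in iPSCs than in pre-iPSCs, with 0 of the 5 genes among them. Around the paired octamer and Sox motifs of Nanog, centred 148 bp before the TSS, the nearest dyad lay at -142 and -229 for MEFs, at -70 and -181 for pre-iPSCs and at -69 and -269 for iPSCs. These positions differed as much between libraries of 1 cell type as between cell types, and rest on 4 to 12 reads apart from 100 in pre-iPSC replicate 1.

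**Figure D2:**
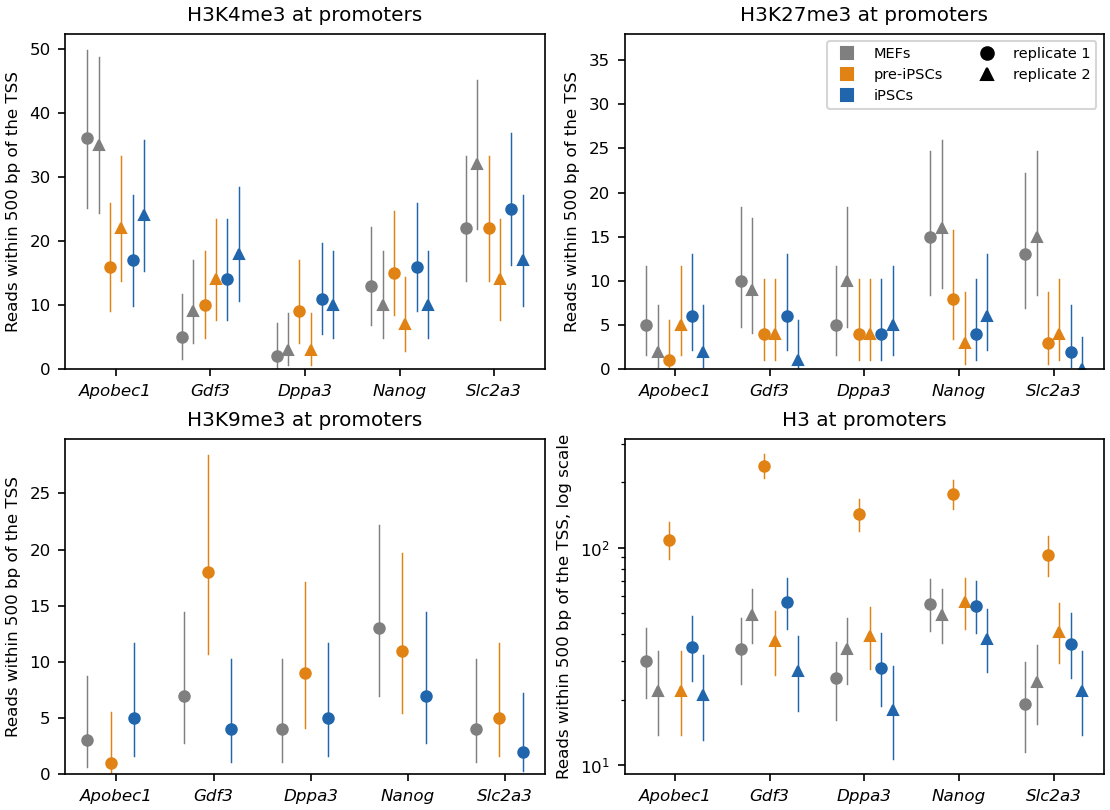
Reads of called nucleosomes within 500 bp of the TSS of each gene, for H3K4me3, H3K27me3, H3K9me3 and H3 (the last on a log axis). Points are libraries and vertical lines are 95% Poisson intervals of the count. H3K27me3 at Nanog, Slc2a3 and Gdf3 is highest in both MEF libraries (9 to 16 reads), H3K9me3 at Gdf3 peaks in pre-iPSCs at 18 reads, and pre-iPSC replicate 1 lies above all other libraries for H3 at each gene.

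The whole 300 kb was then compared with the rest of the genome, to ask whether the marks change over the locus or at its promoters alone. H3K4me3 over the locus stood at 1.22 and 1.22 times the genome mean in MEFs, while pre-iPSCs had 1.48 and 1.44 times and iPSCs 1.41 and 1.62 times. For H3K27me3, MEFs had 1.18 and 1.14 times, pre-iPSCs 0.932 and 0.893 times and iPSCs 0.965 and 0.839 times the mean. For both marks MEFs lay apart from the other cells and pre-iPSCs overlapped iPSCs. H3K9me3 stood at 0.948, 1.13 and 0.944. H3 itself stood at 1.08 and 1.07 times its genome mean in MEFs, 1.59 and 1.12 times in pre-iPSCs and 1.26 and 1.115 times in iPSCs. It was thus above both MEF libraries in all pre-iPSC and iPSC libraries, and its part in the H3K4me3 reads was not tested. Fitted as 1 of 8524 windows of 300 kb, H3K4me3 over the locus was higher than in MEFs by 0.30 ± 0.09 in pre-iPSCs (1814 and 1928 reads against 2413 and 2231, edgeR adjusted p = 0.0223) and by 0.38 ± 0.09 in iPSCs (2278 and 2481 reads, adjusted p = 0.00652). Calls were common at this size, at 37.8% and 50.3% of all windows (18.3% and 23.4% higher). For H3K27me3 the differences of -0.28 ± 0.10 (adjusted p = 0.0580) and -0.33 ± 0.10 (adjusted p = 0.0503) missed the threshold, where 31.7% and 19.1% of windows were called.

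In single 1-kb windows, H3K4me3 was tested in 94 of the 300 windows and H3K27me3 in 50. For H3K4me3, 2 windows were called in pre-iPSCs against MEFs, 1 higher and 1 lower (1.07% of all windows genome-wide, 0.200% higher and 0.873% lower), 0 between iPSCs and pre-iPSCs (0.00402%, with 1 window at an unadjusted p below 0.05, beside 6.95% of all windows) and 7 in iPSCs against MEFs, 4 higher and 3 lower (3.21%, 0.646% higher and 2.57% lower). The balance over the genome turned with the scaling: 2091 windows were higher and 8309 lower in iPSCs than in MEFs, against 3619 higher and 2245 lower when scaled to uniquely mapped reads, and in pre-iPSCs 646 and 2826 against 843 and 675. With that scaling 1 and 4 windows of the locus were called. The windows with more H3K4me3 lay inside the genes and did not hold their TSSs. All 5 held fewer than 10 reads in both MEF libraries, so the filter on low counts kept them through the reprogrammed cells and favoured a higher call. The window from 122557001 in an exon of Gdf3 held 4, 4, 23, 23, 12 and 17 reads (2.22 ± 0.56 from MEFs to pre-iPSCs, edgeR adjusted p = 0.0233). The window from 122659001 in an intron of Nanog held 3, 1, 15, 8, 16 and 14 reads (2.54 ± 0.68 from MEFs to iPSCs, adjusted p = 0.0189). In Slc2a3 the windows from 122688001, with an exon (3, 1, 2, 11, 14 and 16 reads), and from 122691001, in an intron (8, 8, 29, 19, 37 and 25 reads), were higher in iPSCs, by 2.54 ± 0.75 (adjusted p = 0.0374) and 1.64 ± 0.47 (adjusted p = 0.0326). A further window of Gdf3, from 122559001, held 4, 6, 14, 21, 18 and 25 reads (1.78 ± 0.54, adjusted p = 0.0450).

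The 3 windows with less H3K4me3 than in MEFs were at, or next to, starts of genes. Position did not set them apart, as some windows with more of the mark also lay next to the window of a TSS. These were the windows from 122559001 in Gdf3 (TSS at 122560089) and from 122691001 in Slc2a3 (TSS at 122692763). The window of the Apobec1 TSS, from 122552001, held 40, 35, 13, 18, 14 and 16 reads, lower by -1.54 ± 0.41 in pre-iPSCs (edgeR adjusted p = 0.0359) and -1.62 ± 0.42 in iPSCs (adjusted p = 0.0143). Those of Foxj2, from 122770001 at its TSS (46, 25, 21, 12, 14 and 14 reads) and from 122771001 in its intron (20, 30, 20, 13, 8 and 14 reads), were lower in iPSCs (-1.63 ± 0.43 and -1.48 ± 0.46). The sums around the Apobec1 TSS were not called, at -0.48 ± 0.35 (adjusted p = 0.542) and -0.45 ± 0.34 (adjusted p = 0.468) within 500 bp and at -0.60 ± 0.30 (adjusted p = 0.251) and -0.71 ± 0.30 (adjusted p = 0.104) within 1000 bp, by edgeR. DESeq2 called 0 of these windows (149 and 565 of all 323643 windows against MEFs), and with 1 library left out 0 to 1 and 0 to 2 windows were called in place of 2 and 7.

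For H3K27me3 all windows called were lower than in MEFs, 2 in pre-iPSCs (0.946% of all windows, 0.294% lower) and 3 in iPSCs (1.08%, 0.260% lower), with 0 between iPSCs and pre-iPSCs (0.00727%, with 0 at an unadjusted p below 0.05, beside 6.26% of all windows). The windows called held 10 reads or more in both MEF libraries and in at most 1 other library, so the filter on low counts kept them through MEFs and favoured this direction. The window of the Nanog TSS, from 122657001, held 15, 22, 7, 3, 4 and 6 reads and was called in both (-1.87 ± 0.50, edgeR adjusted p = 0.0295; -1.79 ± 0.50, adjusted p = 0.0393). It holds the exon at the start of Nanog and the octamer and Sox motifs printed above. The window from 122612001, between Dppa3 and Nanog with no annotated gene, held 20, 12, 3, 2, 4 and 4 reads (-2.66 ± 0.73 in pre-iPSCs, adjusted p = 0.0382). The windows from 122693001 (15, 28, 10, 9, 7 and 3 reads) and 122700001 (20, 12, 7, 4, 3 and 2 reads) lie upstream of the RefSeq start of Slc2a3, at 122692763. Both are within an intron of a longer annotated form. They were lower in iPSCs by -2.00 ± 0.49 (adjusted p = 0.0120) and -2.57 ± 0.68 (adjusted p = 0.0274). DESeq2 called 0 of these windows (1 and 12 of all 495159 windows against MEFs), and leaving out 1 library gave 0 to 1 and 0 to 3 calls. Without the call threshold, at an unadjusted p below 0.05, 15 windows were lower and 1 higher in pre-iPSCs, and 14 lower and 5 higher in iPSCs, both against MEFs, of the 50 tested, beside 13.9% of all windows in each comparison in either direction. The filter bears on these counts too, as some windows reached 10 reads in MEFs alone. An example is the window from 122604001, with 14, 15, 5, 8, 7 and 6 reads. For H3K4me3 the same counts were near balance, with 11 higher and 10 lower in pre-iPSCs and 13 higher and 11 lower in iPSCs of the 94 tested, beside 15.7% and 18.8% of all windows.

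Windows were also counted in which both libraries of 1 cell type lay beyond both of the other, per uniquely mapped read. H3K4me3 was higher in iPSCs than in MEFs in 108 of 299 windows of the locus (36.1%), against 17.9% genome-wide, and lower in 28 (9.36% against 22.3%). In pre-iPSCs against MEFs it was higher in 28.4% (17.7% genome-wide). H3K27me3 was lower in iPSCs than in MEFs in 119 windows (39.8% against 20.8%) and in pre-iPSCs in 96 (32.1% against 19.0%). Between iPSCs and pre-iPSCs the shares were closer to the genome, at 23.1% against 18.2% for higher H3K4me3 and 19.1% against 16.6% for lower H3K27me3. Neighbouring windows are not independent, and no test was made on these shares.

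Over whole gene bodies and the gaps between them, both marks moved at Gdf3. Its body held 22, 33, 69, 74, 73 and 76 reads of H3K4me3, or 0.947, 1.34, 2.71, 3.07, 2.90 and 3.19 times the genome mean, so the pre-iPSC libraries were at the level of the iPSCs. For H3K27me3 it held 55, 41, 27, 16, 16 and 5 reads, from 2.13 times the genome mean in MEF replicate 1 to 0.191 times in iPSC replicate 2. The Slc2a3 body held 102, 93, 136, 118, 192 and 186 reads of H3K4me3 and 111, 128, 77, 68, 60 and 34 of H3K27me3, with no overlap between the 3 cell types for either mark. The share of all gene bodies with this pattern was not counted. H3 over the Slc2a3 body stood at 1.19, 1.19, 2.71, 1.23, 1.625 and 1.06 times its genome mean, and its part in these reads was not tested. Over the Nanog body H3K4me3 was 20, 34, 69, 33, 68 and 63 reads, so pre-iPSC replicate 2 was at the level of MEFs and replicate 1 at that of iPSCs. The Dppa3 body held 26, 23, 38, 18, 35 and 29 reads of H3K4me3, with iPSCs above MEFs and the pre-iPSC libraries on either side of both. The stretch of 77.3 kb from Dppa3 to Nanog, which holds no member, held 370, 427, 608, 497, 501 and 558 reads of H3K4me3 and 530, 583, 385, 395, 413 and 355 reads of H3K27me3, apart from MEFs in both marks. These sums were not tested.

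**Figure D3:**
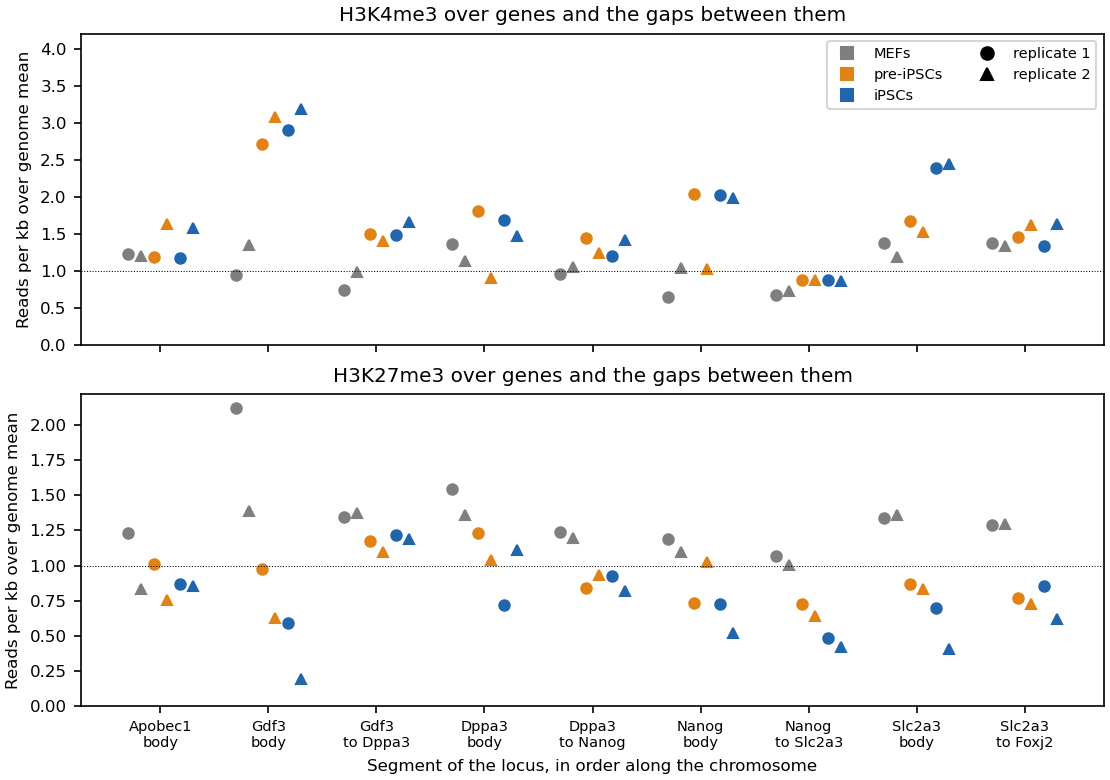
Reads per kb over the genome mean (dotted line at 1) for H3K4me3 and H3K27me3, in each library, over the gene bodies and the stretches between them. H3K4me3 over the Gdf3 body is 2.71 to 3.19 in pre-iPSCs and iPSCs against 0.947 and 1.34 in MEFs, and H3K27me3 is lower than in both MEF libraries over the Nanog and Slc2a3 bodies and the stretches to their right in all pre-iPSC and iPSC libraries.

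With windows of 10 kb, chosen after seeing the data, the 30 windows of the locus hold more reads each. H3K4me3 was then called in 1 window in pre-iPSCs and 7 in iPSCs against MEFs, all higher, beside 5.55% and 13.2% of all windows (3.54% and 7.97% higher). The largest difference was in the window from 122680001 over the Slc2a3 body, with 46, 36, 55, 59, 91 and 108 reads (1.30 ± 0.24 in iPSCs, edgeR adjusted p = 0.000551). H3K27me3 was called in 12 windows in pre-iPSCs (9 lower, 3 higher) and in 15 in iPSCs (12 lower, 3 higher), beside 13.0% and 11.9% of all windows, with 3.31% and 3.12% lower and 9.68% and 8.80% higher. The lower windows ran in 2 blocks, from 122600001 to 122620000 between Dppa3 and Nanog, and from 122650001 to 122740000 over Nanog, Slc2a3 and the stretch to its right, in iPSCs, with 1 more over Gdf3 from 122550001. In the window from 122690001 at the Slc2a3 start, H3K27me3 held 114, 131, 50, 49, 54 and 33 reads (-1.18 ± 0.20 in pre-iPSCs, adjusted p = 0.000753; -1.39 ± 0.21 in iPSCs, adjusted p = 0.000214). Between iPSCs and pre-iPSCs 0 windows of the locus were called for either mark by edgeR, with an unadjusted p below 0.05 in 1 window for H3K4me3 and 3 for H3K27me3 of the 30. Of all windows 0.0284% and 0.110% were called, and 8.51% and 8.60% had an unadjusted p below 0.05.

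**Figure D4:**
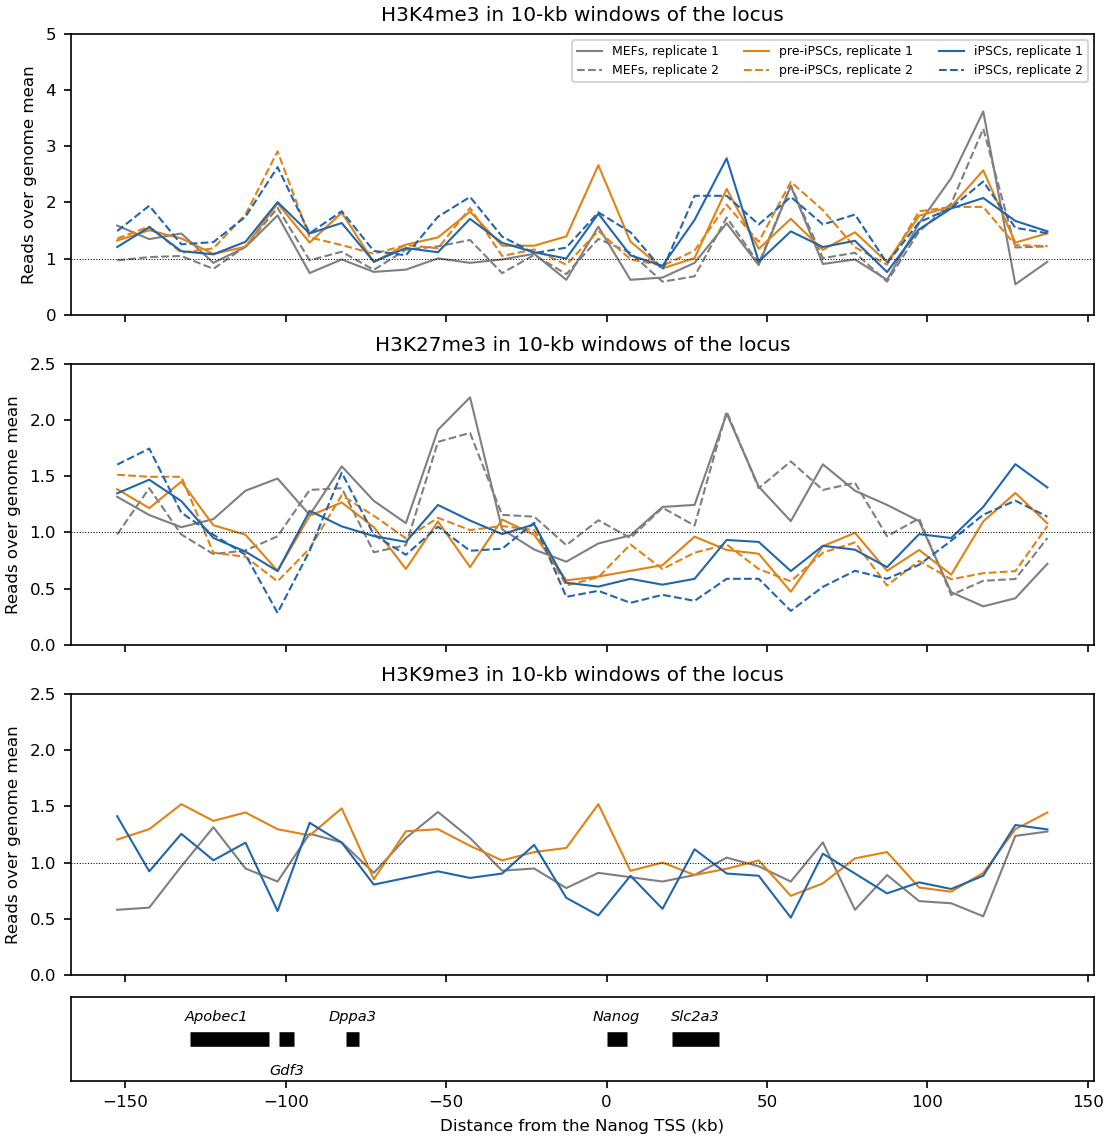
H3K4me3, H3K27me3 and H3K9me3 along the locus in 10-kb windows, as reads over the genome mean (dotted line at 1), by distance from the Nanog TSS, with 1 line per library and the gene bodies below. H3K27me3 in both MEF libraries lies above the other 4 over Slc2a3 (114 and 131 reads against 33 to 54 at the Slc2a3 start), and below both iPSC libraries near the right end, in the window of the Foxj2 start (19 and 36 reads against 71 and 65). Foxj2 is not drawn.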

How the data were processed

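RNA-seq values are FPKM per gene that the authors deposited in 2 tables, each with 1 library of every cell type, made with TopHat2 2.0.4 and Cufflinks 2.0.2 per the submitters' processing notes. The chromatin files that the authors deposited list nucleosomes called by GeneTrack from unique Bowtie 1.0.1 alignments to mm9, each with a read count at the dyad (reads shifted by 73 bp) and a fuzziness score in bp. The counts of calls were summed here around RefSeq TSSs and in windows of 1 kb. Totals of uniquely mapped reads, used for scaling, are those the study lists per library. Windows of 10 kb and 300 kb, and the fit of promoters within 1000 bp with no filter, were chosen after seeing the data.

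FPKM were tested with limma 3.58.1 on log2(FPKM + 1) with the table as a term, for genes whose mean FPKM reached 0.5. Counts were tested with edgeR 4.0.16 (quasi-likelihood, TMM, filterByExpr) in R 4.3.3, with DESeq2 1.42.0 as an alternative. An adjusted p (Benjamini-Hochberg over all features) below 0.05 made a call, for RNA with a log2 difference of at least 1. The SE of edgeR values was taken from the F statistic. Intervals cover counting error only. The scripts were tested on simulated data. Genes named are the members, their neighbours by position, listed pathway genes and markers, and the 3 genes most like Nanog, Dppa3 and Gdf3. The members and lists were chosen with earlier results of these data known. Python 3.11.15, pandas 2.3.3, numpy 2.4.6 and scipy 1.17.1 were used for sums and figures. Only uniquely mapped RNA reads were kept by the authors, and the strand setting of the FPKM is not given in the sources used here.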

Additional observations from a re-analysis of the deposited data

How the results depend on the processing

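Of the values of single genes under alternatives, 521 of 552 kept their side of the threshold, 13 lost a call and 18 gained one. The sign turned in 31, with 0 of these called in either fit. Counts of called genes or windows stayed within 1.5 times the main count in 139 of 198 alternatives. For RNA, a pseudocount of 0.1 raised the genes called in pre-iPSCs against MEFs from 1 to 2. Leaving out 1 library gave 1 to 2 there, 2 to 4 in iPSCs against pre-iPSCs and 3 to 4 in iPSCs against MEFs. Such a fit has 1 residual degree of freedom and takes most of its spread from other genes. The limma fit of all 6 libraries does so too, with 2 residual degrees of freedom and 5.3 taken from other genes. At promoters in iPSCs against MEFs, H3K4me3 calls went from 1 to 0 with DESeq2, with scaling to unique reads and without any 1 library, and to 2 within 1000 bp. H3K27me3 calls there went from 1 to 0 with DESeq2 and to 3 within 1000 bp, and were 0 to 1 without 1 library. In pre-iPSCs against MEFs, 1000 bp gave 1 call for H3K4me3 and 3 for H3K27me3 in place of 0. With no filter as well, 1000 bp gave 3 calls for H3K27me3 in both comparisons. In 1-kb windows DESeq2 called 0 for both marks. For H3K4me3 in pre-iPSCs against MEFs, scaling to unique reads gave 1, a mean of at least 5 reads 0, 10-kb windows 1 and leave-outs 0 to 1, in place of 2, and in iPSCs against MEFs the first gave 4, the second 2 and leave-outs 0 to 2, in place of 7. For H3K27me3 in pre-iPSCs against MEFs, a mean of at least 5 reads gave 5, the replicate block 1, 10-kb windows 12 and leave-outs 0 to 1, in place of 2, and in iPSCs against MEFs 9 for the mean of at least 5 reads, 15 for 10-kb windows and leave-outs 0 to 3, in place of 3. The cause was not tested. Replicate numbers mark first and repeat libraries, for RNA also the table, and the labels tie them to no shared animal, batch or day. The replicate block changed no other count by over 1.5 times, and RNA without the table term gave 1, 2 and 4 calls. The median promoter held 3 or 4 reads of H3K27me3.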

Other observations

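Over the Foxj2 body, at the right end of the locus, H3K27me3 was higher in iPSCs than in MEFs, whereas it was lower at the promoters of Nanog, Slc2a3 and Gdf3 and overlapped at that of Apobec1. MEFs held 64 and 99 reads, pre-iPSCs 175 and 102 reads and iPSCs 203 and 170 reads, or from 0.459 times the genome mean in MEF replicate 1 to 1.39 times in iPSC replicate 1. The iPSC libraries lay above both MEF libraries. In the 10-kb window from 122780001 the difference from MEFs was 1.07 ± 0.31 in pre-iPSCs (edgeR adjusted p = 0.0263) and 1.56 ± 0.29 in iPSCs (adjusted p = 0.00138), where 9.68% and 8.80% of all windows were called higher.

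Runs of neighbouring windows with at least 6 reads each, with gaps of at most 1 window and at least 60 reads in all, covered 67 and 90 kb of the locus for H3K4me3 in MEFs, 228 and 193 kb in pre-iPSCs and 156 and 232 kb in iPSCs. For H3K27me3 they covered 151 and 147 kb in MEFs, 103 and 41 kb in pre-iPSCs and 105 and 73 kb in iPSCs. The cut of 6 reads lies near the mean of the locus, so small differences in level change the length covered. That mean was 6.05 and 6.43 reads per kb for H3K4me3 in MEFs and 7.44 to 8.27 in the other libraries. For H3K27me3 it was 6.56 and 7.20 in MEFs and 4.71 to 5.58 in the others. The cut was not scaled to depth, and the share of the genome in such runs was not counted. The Slc2a3 TSS lay in such a run of H3K27me3 in both MEF libraries and in no other library, and in one of H3K4me3 in all 6. The Gdf3 TSS lay in a run of H3K27me3 in both MEF libraries and pre-iPSC replicate 1, the Dppa3 TSS in these and iPSC replicate 2, and the TSSs of Nanog and Apobec1 in none.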
